A study of Homo sapiens with 6 samples.

Results

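The 10 genes described here encode regulators of alternative splicing and were followed after knockdown of the long noncoding RNA CyCoNP in differentiating neuroblastoma cells. They are the 3 Muscleblind-like genes MBNL1, MBNL2 and MBNL3, together with RBFOX2, NOVA1, NOVA2, PTBP1, PTBP2, SRRM4 and CELF4. They are 10 of the 60676 genes listed, and all 10 were among the 13966 genes with a mean level of at least 1 FPKM (fragments per kilobase of gene length, scaled to the library total) in either group. The set was chosen by measured values of this same comparison, because MBNL3 stood among the stronger decreases, so MBNL3 is described without a test. The other 9 genes complete a group of splicing regulators that was put together with earlier results of these data known.

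The cells were SK-N-BE, a human neuroblastoma line that takes on neuronal traits under retinoic acid. All libraries came from cells kept for 1.5 days in differentiation medium with 10 μM retinoic acid. Cells had received either a scrambled small interfering RNA (si-SCR) or siRNAs pooled to target exon 2 of CyCoNP (named si-CyCoNP), with 3 total RNA libraries in each group. The comparison asks which transcripts depend on CyCoNP. Because 1 cell line and 1 siRNA pool were used, loss of CyCoNP and other actions of that pool cannot be told apart.

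Splicing regulators bind short motifs in precursor messenger RNA and promote or block the use of nearby exons. MBNL proteins are zinc finger proteins that drive the splicing patterns of mature muscle and brain, and CELF proteins oppose them on many exons. PTBP1 represses neuronal exons in progenitor cells and is replaced by PTBP2 as neurons form, while SRRM4, RBFOX and NOVA proteins promote exons that are used in neurons. The measurements below are gene levels that sum all splice forms, and exon usage was not analysed here.

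The libraries held 3762009 to 4799407 counted fragments. The paper reports far more reads per sample, and that difference was not examined here. On the first principal component si-SCR replicate 3 stood apart from the other si-SCR libraries, at -20.9 against -34.8 and -35.5, with the si-CyCoNP libraries at 29.2 to 32.2. LINC02381, the gene of CyCoNP, was counted 274, 208 and 315 times in si-SCR libraries, but 20, 30 and 12 times after knockdown, which checks the labels, a log2 fold change of -3.78 (SE 0.19). All 8 markers of adrenergic neuroblastoma were above the filter, as the cell line label implies, and 5 of them fell in si-CyCoNP while MYCN rose by 0.84 on the log2 scale. Their summed level was 1826 to 1965 FPKM in si-SCR, against 1674 to 1802 FPKM in si-CyCoNP. Of the Schwann cell and glial markers, the defining marker SOX10 was at 0 in every library. Of 4 fibroblast markers 3 passed the filter and COL1A1 rose while DCN fell, and of 7 mesenchymal markers 5 passed it and FN1 rose while VIM and SNAI2 fell. Fibroblast markers summed to 4.98 to 8.74 and 6.62 to 8.73 FPKM with COL1A2 at 0, and mesenchymal markers to 103.8 to 125.1 and 101 to 106 FPKM with PRRX1 at 0. None of 4 proliferation markers passed the test, with sums of 149 to 185 and 164 to 187 FPKM. Of 4 pan-neuronal markers 2 fell. The part of these markers in the results below was not tested.

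MBNL3 had 19.5, 19.3 and 18.0 FPKM in the si-SCR libraries and 5.62, 6.29 and 5.08 FPKM in the si-CyCoNP libraries. Every si-CyCoNP library lay far below every si-SCR library, and replicates within a group were close to each other. The raw counts were 1022, 884 and 1052 against 329, 326 and 257. The mean went from 18.9 ± 0.792 to 5.66 ± 0.605 FPKM (SD, n = 3), a log2 fold change of -1.81 (SE 0.09) after normalisation for library composition, or 28.5% of the si-SCR level. Without si-SCR replicate 3 the log2 fold change was -1.86. It was, with all libraries, the 312th lowest log2 fold change of the 13966 genes tested. In si-SCR cells MBNL3 stood at the 84.9th percentile of these genes by level. In these bulk samples, fewer cells with the transcript and less RNA per cell cannot be told apart. MBNL3 (ENSG00000076770) lies on the minus strand of chrX:132369320-132489968 in GRCh38.

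MBNL1, the best studied member of the family, moved the other way. It had 9.23, 8.81 and 8.81 FPKM in si-SCR, against 12.8, 13.5 and 13.7 FPKM in si-CyCoNP. The groups did not overlap, and the si-CyCoNP libraries were the higher ones. MBNL1 rose from 8.95 ± 0.243 to 13.3 ± 0.447 FPKM (SD, n = 3), a log2 fold change of 0.51 (SE 0.09, edgeR quasi-likelihood test, adjusted p = 7.75e-05). MBNL1 (ENSG00000152601) lies on the plus strand of chr3:152243828-152465780 in GRCh38, where its exons overlap MBNL1-AS1 on the other strand. That antisense gene had 8, 2 and 5 counts in si-SCR, against 13, 12 and 13 in si-CyCoNP and was below the filter.

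MBNL2, a member with a large role in the brain, had 7.31, 9.04 and 7.97 FPKM in si-SCR, against 5.18, 6.09 and 5.60 FPKM in si-CyCoNP. The si-CyCoNP libraries were all lower, with a gap between the groups that was smaller than the range of the si-SCR libraries. MBNL2 fell from 8.11 ± 0.878 to 5.62 ± 0.455 FPKM (SD, n = 3), by 0.59 on the log2 scale (SE 0.13, adjusted p = 0.00122). The gene (ENSG00000139793) lies on the plus strand of chr13:97221434-97394120. The plot of levels in each library shows the 3 MBNL genes beside the other 7.

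**Figure D1:**
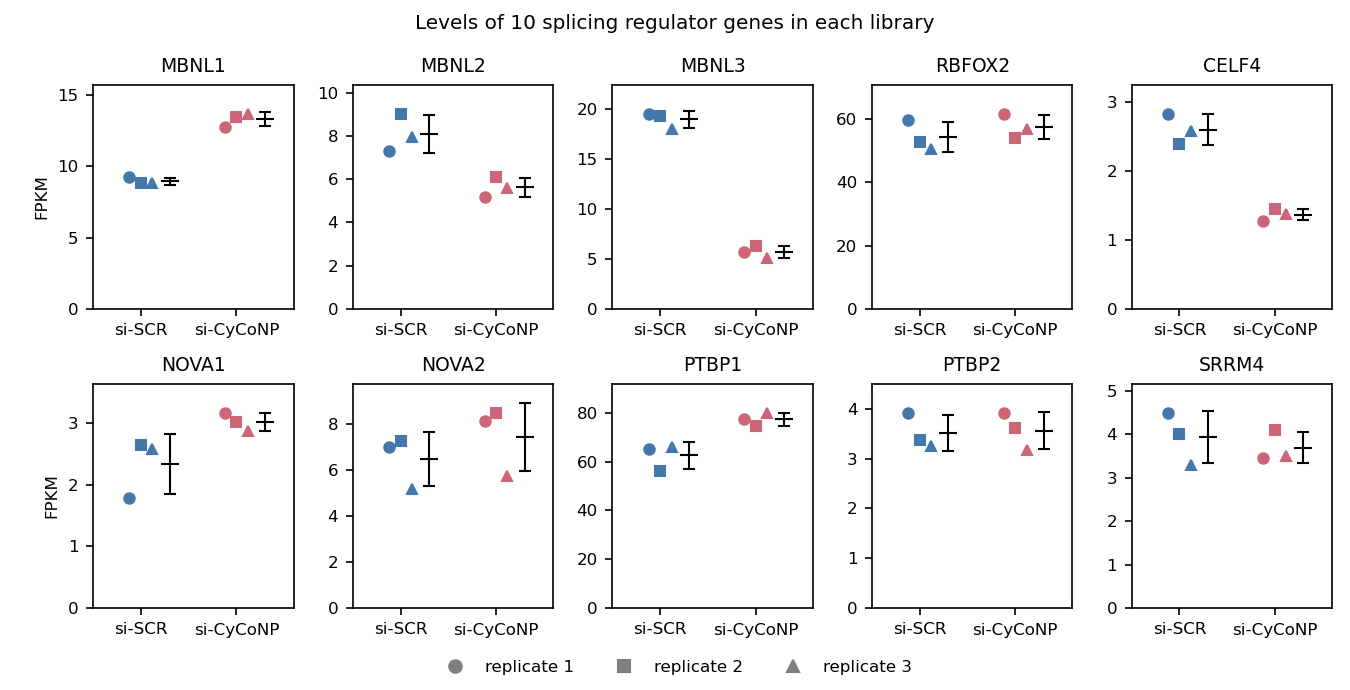
Each panel plots 1 gene, with the level in FPKM on the vertical axis from 0 and the si-SCR and si-CyCoNP libraries on the horizontal axis. Symbols are libraries, and the black bars give the mean and SD of 3 libraries. The groups are apart for MBNL1, MBNL2, MBNL3, CELF4, NOVA1 and PTBP1 and overlap for the other 4 genes.

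Together the 3 genes changed their order within the family. Levels per length of the 3 genes summed to 36.0, 37.1 and 34.8 FPKM in si-SCR, against 23.7, 25.9 and 24.4 FPKM in si-CyCoNP. The sum was thus lower in every si-CyCoNP library, with a mean difference of -11.4 FPKM. The difference was -12.8 after division by the composition factor of each library. These values hold MBNL3 and are descriptions.

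MBNL3 made up 54.1%, 51.9% and 51.8% of the summed level in si-SCR, against 23.8%, 24.3% and 20.8% in si-CyCoNP. MBNL1 made up 25.6%, 23.7% and 25.3% in si-SCR, against 54.3%, 52.1% and 56.2% in si-CyCoNP. By FPKM, MBNL3 was thus the highest MBNL gene in every si-SCR library and MBNL1 in every si-CyCoNP library. These shares rest on a fixed length per gene, of 12199 bases for MBNL3, 9989 for MBNL1 and 4908 for MBNL2. The lengths of the splice forms in use were not measured here. The share of MBNL2 hardly moved, with means of 22.5% and 22.8%. Without MBNL3, the levels of MBNL1 and MBNL2 together came to 17.1 ± 0.701 FPKM in si-SCR, against 19.0 ± 0.825 FPKM in si-CyCoNP (SD, n = 3). The ratio of MBNL1 to MBNL2 was 1.26, 0.974 and 1.11 in si-SCR, against 2.48, 2.21 and 2.45 in si-CyCoNP. All si-CyCoNP libraries were higher, by 1.10 on the log2 scale. Both genes were apart in opposite directions, so this outcome followed from their own values. The p was 0.1 (exact permutation test, two-sided), the smallest that 3 against 3 allows, and adds no further support. The plot of the make-up of MBNL transcripts shows this reordering.

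**Figure D2:**
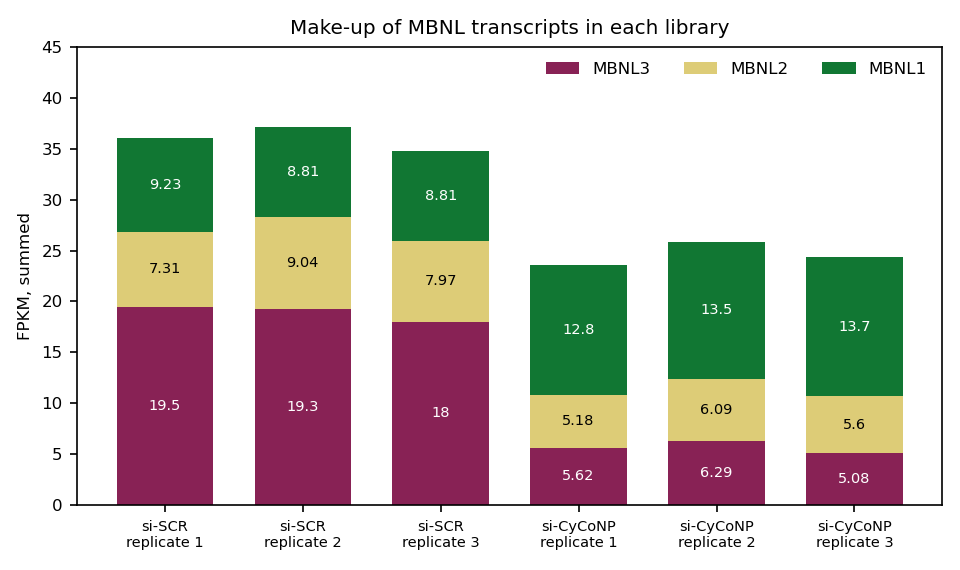
Stacked bars give the levels of MBNL3, MBNL2 and MBNL1 in FPKM on the vertical axis for each of the 6 libraries on the horizontal axis, with each value printed in its segment. The full bars reach 34.8 to 37.1 FPKM in si-SCR, against 23.7 to 25.9 FPKM in si-CyCoNP, and MBNL3 is the largest segment in the si-SCR bars only.

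CELF4, a neuronal CELF protein that binds messenger RNAs of synaptic proteins, had 2.83, 2.39 and 2.58 FPKM in si-SCR, against 1.28, 1.45 and 1.37 FPKM in si-CyCoNP. The groups were well apart, although the gene was the least expressed of the 10 in si-CyCoNP and rested on 77, 57 and 78 against 39, 39 and 36 counts. CELF4 fell from 2.60 ± 0.220 to 1.37 ± 0.0831 FPKM (SD, n = 3), by 0.996 on the log2 scale (SE 0.20, adjusted p = 0.000397). That value is just short of the limit of 1 that the study used to call a gene changed. It passed that limit with DESeq2 (-1.003), with DESeq2 size factors in edgeR (-1.001) and with an offset for gene length (-1.01). The same held when either of si-SCR replicates 2 and 3 or of si-CyCoNP replicates 2 and 3 was left out, at -1.04 to -1.01. On the log2(FPKM + 1) scale, where a pseudocount of 1 weighs on so low a gene, the difference was -0.60. CELF4 (ENSG00000101489) lies on the minus strand of chr18:37243040-37565827.

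PTBP1 had the highest mean FPKM of the 10 genes in both groups. Its levels were 65.2, 56.3 and 66.1 FPKM in si-SCR, against 77.3, 74.5 and 79.9 FPKM in si-CyCoNP. All si-CyCoNP libraries were higher, with a narrower spread than in si-SCR. PTBP1 rose from 62.5 ± 5.41 to 77.2 ± 2.66 FPKM (SD, n = 3), a log2 fold change of 0.24 (SE 0.08, adjusted p = 0.0255). Whether PTBP1 passed depended on which library was left out. The log2 fold change was 0.17 with an adjusted p of 0.165 without si-SCR replicate 2, and the adjusted p was 0.0776 when si-CyCoNP replicate 1 was left out and 0.122 for si-CyCoNP replicate 3.

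PTBP2, the neuronal paralog, had 3.92, 3.37 and 3.26 FPKM in si-SCR, against 3.91, 3.62 and 3.17 FPKM in si-CyCoNP. The groups overlapped fully and the log2 fold change was -0.05 (SE 0.12, adjusted p = 0.824). The ratio of PTBP2 to PTBP1 levels was 0.0602, 0.0599 and 0.0494 in si-SCR, against 0.0507, 0.0486 and 0.0397 in si-CyCoNP. The groups overlapped, and the difference of -0.29 on the log2 scale did not reach the smallest p the design allows (exact permutation test, two-sided, p = 0.2).

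RBFOX2, the only RBFOX gene at an appreciable level, had 59.8, 52.9 and 50.6 FPKM in si-SCR, against 61.8, 54.1 and 56.9 FPKM in si-CyCoNP. The groups overlapped, with a log2 fold change of 0.01 (SE 0.08, adjusted p = 0.93). Levels of NOVA1 were 1.78, 2.65 and 2.59 FPKM in si-SCR, against 3.17, 3.03 and 2.87 FPKM in si-CyCoNP. The NOVA1 groups did not overlap, with the first si-SCR library well below the rest, and the log2 fold change of 0.31 (SE 0.15, adjusted p = 0.14) missed the threshold and was 0.16 without that library.

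NOVA2, the cortical NOVA gene, had 7.01, 7.29 and 5.16 FPKM in si-SCR, against 8.12, 8.49 and 5.76 FPKM in si-CyCoNP. Replicate 3 was the lowest in both groups, and the groups overlapped, with a log2 fold change of 0.14 (SE 0.14, adjusted p = 0.489). SRRM4, which activates the short microexons of neurons, had 4.49, 4.0 and 3.30 FPKM in si-SCR, against 3.46, 4.10 and 3.51 FPKM in si-CyCoNP. Its groups overlapped too, with a log2 fold change of -0.16 (SE 0.13, adjusted p = 0.399).

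Of the 9 genes other than MBNL3, 4 passed the test, namely MBNL1 and PTBP1 as higher and MBNL2 and CELF4 as lower. Of all genes tested 28.4% passed, 14.2% as higher and 14.2% as lower. With library totals alone as scaling these shares were unequal, with 2465 genes higher and 1574 lower, and the same 4 genes passed. The median log2 fold change of the 9 genes was 0.01, and that of all genes tested was 0.01. In the main edgeR fit, none of the 9 was called at a log2 fold change above 1 or below -1. Of all genes tested, 2.28% were called above 1 and 2.98% below -1. With DESeq2 instead, CELF4 was called lower, at -1.003 (adjusted p = 0.00156). Groups were apart for 5 of the 9 genes and for 40.3% of all genes.

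The plot of log2 fold changes sets the 10 genes beside their paralogs. The order of levels in si-SCR was PTBP1, RBFOX2, MBNL3, MBNL1, MBNL2, NOVA2, SRRM4, PTBP2, CELF4 and NOVA1. The ranges of neighbours overlapped for PTBP1 and RBFOX2, MBNL1 and MBNL2, SRRM4 and PTBP2, and CELF4 and NOVA1. In si-CyCoNP MBNL3 stood between NOVA2 and MBNL2 and overlapped both, while MBNL1 stood alone behind RBFOX2.

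**Figure D3:**
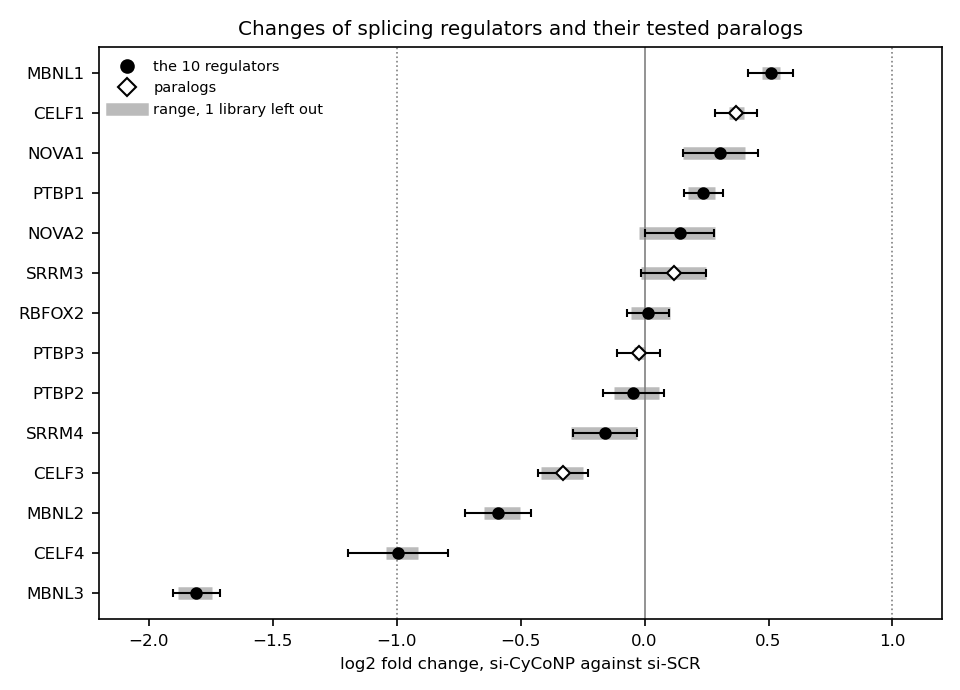
Points give the log2 fold change of si-CyCoNP against si-SCR on the horizontal axis for the 10 regulators and 4 paralogs on the vertical axis, bars give the SE of the fit, and grey bands give the range when 1 of the 6 libraries was left out. Dotted lines mark a log2 fold change of 1 in either direction. MBNL3 at -1.81 lies beyond the lower line, and CELF4 at -0.996 lies on it.

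Of 9 paralogs 4 passed the expression filter. CELF1, the widely expressed CELF protein that opposes MBNL1 on many exons, had 11.1, 10.6 and 11.6 FPKM in si-SCR, against 15.4, 15.5 and 14.2 FPKM in si-CyCoNP. All si-CyCoNP libraries were higher, and CELF1 rose by 0.37 on the log2 scale (SE 0.09, adjusted p = 0.00165). CELF3, a neuronal member, had 19.1, 18.9 and 16.3 FPKM in si-SCR, against 16, 16.1 and 13.1 FPKM in si-CyCoNP. The CELF3 groups were close but apart, and the log2 fold change was -0.33 (SE 0.10, adjusted p = 0.0138). CELF3 no longer passed without si-SCR replicate 1 (adjusted p = 0.0514), si-SCR replicate 2 (0.0601) or si-CyCoNP replicate 3 (0.104). It also missed the threshold with library totals alone (0.0514).

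PTBP3, the remaining PTB gene, and SRRM3, the paralog of SRRM4, had log2 fold changes of -0.02 (SE 0.09, adjusted p = 0.87) and 0.12 (SE 0.13, adjusted p = 0.557). RBFOX1 was below the filter, with a mean of 0.425 FPKM in si-SCR, against 0.400 FPKM in si-CyCoNP. RBFOX3, CELF2, CELF5 and CELF6 were at or near 0. Thus 2 of the 4 tested paralogs passed, 1 in each direction, with a median of 0.05, beside 28.4% of all genes tested and a median of 0.01.

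The study links CyCoNP to the microRNA miR-4492, so the 3′ untranslated regions (3′ UTRs) of the 10 genes were searched for its seed match. The mature sequence is credited to RefSeq (GRCh38.p14, plus strand of chr11:118910765-118910781), with bases 2 to 8, the seed, in capitals. The words searched on the transcript strand were CCAGCCC, which pairs with bases 2 to 8, and CAGCCCA, which pairs with bases 2 to 7 and ends in A. Where one word starts a base after the other they share 6 letters, and such a place was counted once. The matches in MBNL3 and CELF4, the genes with the lowest log2 fold changes of the 10, follow, read from GENCODE transcripts in GRCh38, with the word in capitals.
hsa-miR-4492: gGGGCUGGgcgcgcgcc
MBNL3, chrX:132373456-132373477, minus strand: ttttccctCAGCCCAtaatcac
MBNL3, chrX:132369886-132369907, minus strand: ggccagtgCAGCCCAgcatttt
CELF4, chr18:37244838-37244859, minus strand: gggcttttCCAGCCCacgggcg

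MBNL3 held 2 places with the shorter pairing and 0 with bases 2 to 8, in the longest 3′ UTR of the set at 10346 bases. Of 205 tested genes with a 3′ UTR of like length, 80% to 125% of that of MBNL3, 66.3% held either word. CELF4 held 1 place in 2202 bases, at which both words were found, so it pairs with bases 2 to 8 and ends in A. Of genes of like length 36.7% held either word, a share that does not single out such joint places. MBNL1, MBNL2, NOVA1 and PTBP2 held 0. NOVA2 held 5 places, SRRM4 4, RBFOX2 1 and PTBP1 1.

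Of all 10487 tested genes with an annotated 3′ UTR 32.0% held either word, and of the 378 such genes called lower 34.9% did. A match is a run of letters and not a binding site. The 10 genes were long by their medians but varied. Their median gene model was 10158 bases, with a range of 4908 to 12937, against a median of 4278 for all tested genes. Their median 3′ UTR was 5169 bases, with a range of 1501 to 10346, against a median of 1585. The longest 1378 tested genes had a median log2 fold change of -0.03.

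Among 38 other splicing factors, written from general knowledge as a list, 35 passed the filter and 10 passed the test, 7 as higher and 3 as lower. That is 28.6% of the 35, beside 28.4% of all genes tested. Their median log2 fold change was 0.06 beside 0.01 for all genes, and the groups were apart for 17 of the 35, beside 40.3% of all genes. KHDRBS3, a brain and testis enriched relative of the signalling protein KHDRBS1, had 10.5, 10.2 and 13.3 FPKM in si-SCR, against 6.12, 5.55 and 5.52 FPKM in si-CyCoNP. The groups were well apart, and KHDRBS3 fell by 1.05 on the log2 scale (SE 0.11, adjusted p = 2.99e-08), the only one of the 35 called beyond 1 in either direction. SRSF12, a serine and arginine rich factor, fell from 3.82 ± 0.509 to 2.20 ± 0.486 FPKM (SD, n = 3), by 0.86 on the log2 scale (SE 0.21, adjusted p = 0.00233). SRSF6, of the same family, had a log2 fold change of -0.25 (adjusted p = 0.0369). It no longer passed with DESeq2 (0.0621), with library totals alone (0.143) or without si-SCR replicate 3 (0.106). Nor did it pass without si-CyCoNP replicate 2 (0.201) or si-CyCoNP replicate 3 (0.0605).

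SRSF8, a close copy of SRSF2 whose reads may be shared with it, rose from 14.3 ± 0.815 to 23.3 ± 3.22 FPKM (SD, n = 3), by 0.63 on the log2 scale (SE 0.11, adjusted p = 6.38e-05). HNRNPM, SRSF9 and QKI, the last a regulator of splicing in glia and muscle, rose by 0.34, 0.32 and 0.30 (adjusted p = 0.00259, 0.00531 and 0.00775). HNRNPD had a log2 fold change of 0.24, and HNRNPL and HNRNPA2B1 had 0.21 each (adjusted p = 0.0288, 0.0481 and 0.0393). These 3 genes no longer passed without si-SCR replicate 2 (0.166, 0.176 and 0.187) or si-CyCoNP replicate 1 (0.177, 0.157 and 0.118). The same held without si-CyCoNP replicate 2 (0.0592, 0.145 and 0.0630). HNRNPL and HNRNPA2B1 also missed the threshold without si-CyCoNP replicate 3 (0.0708 and 0.134), and HNRNPD and HNRNPL with DESeq2 (0.0507 and 0.0745). The number of splicing factors passing as higher was 4 to 8 as 1 library was left out. It was 4 without si-SCR replicate 2, si-CyCoNP replicate 1 or si-CyCoNP replicate 2. KHDRBS2, RBM24 and U2AF1 were below the filter, the last being a gene with a near-identical copy that unique counting can empty.

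**Figure D4:**
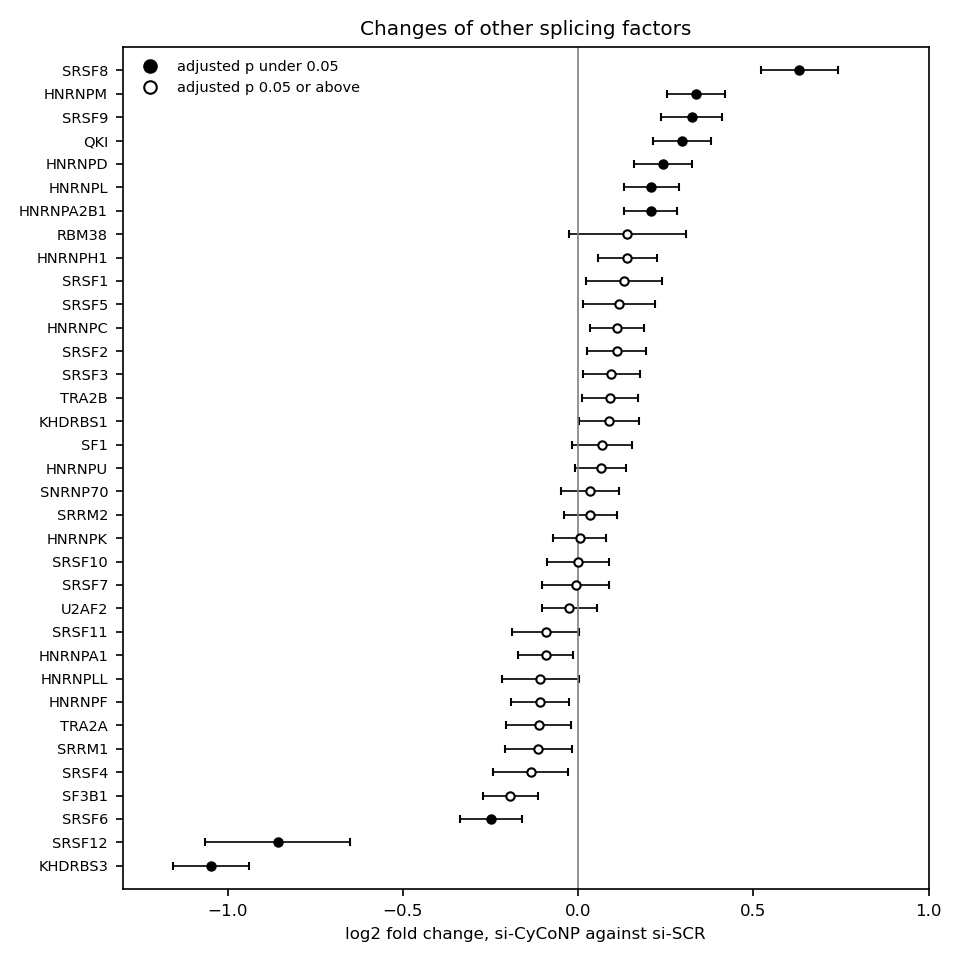
Points give the log2 fold change of si-CyCoNP against si-SCR on the horizontal axis for 35 other splicing factors on the vertical axis, bars give the SE of the fit, and filled points passed an adjusted p of 0.05. KHDRBS3 at -1.05 and SRSF12 at -0.86 lie apart from the rest at the bottom, and SRSF8 at 0.63 lies at the top.

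Of 16 genes that carry well known exons under control of these regulators, 9 passed the filter and 2 passed the test at the level of the gene, both as lower, which is 22.2% beside 28.4% of all genes tested. CAMK2D, a kinase gene with exons regulated by MBNL and RBFOX proteins, had 7.21, 8.23 and 7.30 FPKM in si-SCR, against 5.04, 6.52 and 5.41 FPKM in si-CyCoNP. Its groups were apart, and CAMK2D fell by 0.49 on the log2 scale (SE 0.12, adjusted p = 0.0028). INSR, the insulin receptor with an exon regulated by MBNL and CELF proteins, had 3.33, 4.20 and 4.85 FPKM in si-SCR, against 2.83, 3.41 and 3.63 FPKM in si-CyCoNP. These groups overlapped, with a log2 fold change of -0.40 (SE 0.14, adjusted p = 0.0294). INSR no longer passed without si-SCR replicate 2 (0.0708), si-SCR replicate 3 (0.125), si-CyCoNP replicate 1 (0.163) or si-CyCoNP replicate 2 (0.0601). The median of the 9 genes was -0.02.

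The nearest tested genes beside the MBNL genes showed no common direction. RAP2C, a small GTPase gene 149840 bases from MBNL3, had 13.6, 12.1 and 11.1 FPKM in si-SCR, against 19.2, 16.3 and 15.8 FPKM in si-CyCoNP, opposite in direction to MBNL3. RAP2C rose by 0.42 on the log2 scale (SE 0.12, adjusted p = 0.00744), with an adjusted p of 0.0745 without si-CyCoNP replicate 1. HS6ST2, a heparan sulfate sulfotransferase gene 136047 bases away on the other side, had 1.96, 2.29 and 2.17 FPKM in si-SCR, against 1.12, 2.02 and 1.21 FPKM in si-CyCoNP. Only replicate 2 of si-CyCoNP was near the si-SCR level, and the log2 fold change of -0.63 (SE 0.25, adjusted p = 0.0623) passed the test without that library (-0.93, adjusted p = 0.0156).

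Beside MBNL2, HS6ST3 fell by 0.50 on the log2 scale (adjusted p = 0.00669, but 0.0535 without si-CyCoNP replicate 2) and RAP2A had a log2 fold change of -0.10 (adjusted p = 0.524). Beside MBNL1, MED12L, a paralog of a Mediator subunit gene, had a log2 fold change of -0.50 (adjusted p = 0.00536, but 0.0754 without si-SCR replicate 1), and DHX36, a helicase gene, 0.06 (adjusted p = 0.666). Of the 6 tested neighbours 3 passed, 1 as higher and 2 as lower, with a median of -0.30, beside 14.2% of all genes tested in each direction and a median of 0.01. MBNL1 and MED12L thus moved in opposite directions, while MBNL2 and HS6ST3 were both lower. These neighbours are the nearest genes that passed the filter, and some lie far away. From MBNL1, MED12L lies 806756 bases away and DHX36 1806766 bases. From MBNL2, HS6ST3 lies 381872 bases away and RAP2A 40049 bases.

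The genes whose levels followed MBNL3 most closely over the 6 libraries were RAP1GAP2 and HAUS2 (Pearson r of log2 normalised counts, 0.999 for each), then NCALD, ARVCF and ADAM9 (0.998 for each). Such values mostly express the same step between the 2 groups and are given as a description. The log2 fold changes were -0.95 for RAP1GAP2, which acts on the GTPase Rap1, -0.77 for HAUS2, a subunit of the augmin complex of the spindle, -0.82 for NCALD, a neuronal calcium sensor, -1.16 for ARVCF, a catenin, and -1.48 for ADAM9, a membrane protease. ADAM9 came nearest to MBNL3 in size, with 13.0, 11.6 and 12.0 FPKM in si-SCR, against 4.42, 5.05 and 4.29 FPKM in si-CyCoNP.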

How the data were processed

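Total RNA libraries depleted of ribosomal RNA were made by the authors with a stranded kit and sequenced as paired-end reads. Per the labels, tools included Trimmomatic 0.39, Cutadapt 3.2, Bowtie2 2.4.2 and STAR 2.7.7a, with GRCh38. The deposited counts are the authors' raw numbers of uniquely mapped fragments per Ensembl gene, so near-identical genes are undercounted. The deposited FPKM values are the authors' counts scaled by gene length and library total. Both tables gave the same length within 0.1% for each of the 22586 genes counted in 2 or more libraries.

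Counts were compared, 3 si-CyCoNP against 3 si-SCR libraries grouped by title, using R 4.3.3 and edgeR 4.0.16 (glmQLFTest, a quasi-likelihood test, with TMM factors and a minimum of 1 for the mean FPKM of either group, Benjamini-Hochberg adjustment over 13966 genes). Passing means an adjusted p under 0.05, and called adds a log2 fold change beyond 1. For this step the study's methods name DESeq2, and a supplementary legend names the likelihood ratio test of edgeR, which was not run here. DESeq2 1.42.0, limma 3.58.1 on log2(FPKM + 1) and log2(FPKM + 0.1), other scalings and filters, a length offset, the replicate number as a block and leaving out each library were alternatives. SE is that of the fit, and ± gives the SD of libraries. The edgeR step was tested on simulated data. Replicates differed by more than sampling noise, with a chi-square per degree of freedom of 2.56 to 5.69 between pairs. The labels do not say that they came from separate cultures, so p-values measure the spread between these libraries. Counts are not corrected for PCR duplicates.

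Members and lists were chosen with earlier results of these data known. Named were all 10 members, LINC02381, every paralog and locus neighbour, up to 5 genes per direction with the smallest p among those passing in each other list (2 further splicing factors, HNRNPL and HNRNPA2B1, and those below the filter were added after values were seen), and the 5 genes with the highest Pearson r with MBNL3. Marker genes are named only where they bear on the cell type. Some marker values, and the summed level of the Schwann cell and glial list, are not reported here. 3′ UTRs are the longest annotated in GENCODE v44. The siRNA sequences were not used here.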

Additional observations from a re-analysis of the deposited data

How the results depend on the processing

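Across 15 alternatives fitted over all genes, MBNL1, MBNL2 and CELF4 kept their direction and passed the test in each, and NOVA1 and SRRM4 kept their direction and missed it in each. The log2 fold change of MBNL3 ranged from -1.88 to -1.58, the last on the log2(FPKM + 1) scale, which by its pseudocount shrinks changes of low genes. With 1 library left out, its range was -1.88 to -1.75. The same fits gave -0.0568 to 0.101 for RBFOX2, -0.0235 to 0.285 for NOVA2, -0.122 to 0.0562 for PTBP2, -0.0444 to 0.00244 for PTBP3 and -0.0147 to 0.248 for SRRM3, so that their sign was not fixed. The sign of PTBP2 and PTBP3 also turned with library totals alone (0.0235 and 0.0442), on log2(FPKM + 1) (0.0150 and 0.0403) and on log2(FPKM + 0.1) (0.0185 and 0.0428), scalings that raised the median of all genes by 0.07, 0.06 and 0.07.

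Leaving out 1 library gave 1 to 2 of the 9 members as higher, 0 to 1 paralogs as lower, 4 to 8 other splicing factors as higher, 1 to 2 target genes as lower, and 0 to 1 locus neighbours as higher and 1 to 2 as lower. The number of lower paralogs was 0 with library totals alone and on both FPKM scales, of lower target genes 1 with DESeq2, 1 with library totals alone and 0 on both FPKM scales, and of lower neighbours 0 on both FPKM scales. In the main edgeR fit, a log2 fold change beyond 1 as a further condition left 0 of the 9 members, 0 paralogs and 0 target genes. It left 0 higher and 1 lower splicing factor. The difference in summed MBNL level was -12.8 FPKM after division by the TMM factors. The cause of these changes was not tested.

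Same-numbered libraries deviated together weakly but in every pair, with correlations of 0.0907, 0.0727 and 0.108. Pairs of unlike number had -0.0666 to -0.0229, so each library correlated best with its own number. With the replicate number as a block 4771 genes passed in place of 3972, and the log2 fold change of MBNL3 was -1.81. The adjusted p of PTBP1 was 0.00232 with the block, in place of 0.0255 (edgeR quasi-likelihood test). Of the members, paralogs and neighbours only HS6ST2 newly passed (-0.65, adjusted p = 0.0242). At 3762009 to 4799407 counts per library, CELF4 rests on 36 to 78 counts.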
